A study of Homo sapiens with 6 samples.

Results

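The autophagy machinery was followed here as 39 genes that build autophagosomes, feed cargo into them or control their transcription, chosen by gene symbol from the 50868 genes of the deposited table. Each of the 39 symbols matched 1 row. Their transcripts were counted by RNA sequencing of KYSE-150, a long-used cell line from a human squamous carcinoma of the oesophagus. The siZNF514 group held 3 libraries, which the labels call a ZNF514 knockout by siZNF514, and the nc group held 3 libraries of the same line, which the series text calls wild type. The name siZNF514 is the usual form for a small RNA that reduces ZNF514 messenger RNA and leaves the gene in place. The sources used here do not give the time after treatment, whether nc cells received a control siRNA, or whether libraries came from separate cultures. The p-values therefore measure the spread between these libraries, which may be technical.

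Macroautophagy encloses cytoplasm in a double membrane and delivers it to the lysosome for breakdown. The ULK kinase complex starts the process, a class III phosphatidylinositol 3-kinase marks the growing membrane with the lipid PI3P, and ATG9 vesicles and ATG2 proteins supply lipid. A ubiquitin-like conjugation system then attaches LC3 and GABARAP proteins, the ATG8 family, to that membrane, where they hold cargo receptors such as p62. In squamous epithelium and its tumours, autophagy is known for its part in stress survival and in the turnover of p62, which also feeds the NRF2 pathway.

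Libraries held 13262363 to 14318909 counts in siZNF514 and 12175259 to 13696180 in nc. The targeted transcript, ZNF514, had 64, 82 and 63 counts in siZNF514 and 239, 273 and 261 in nc, so it was lower in every siZNF514 library and still present in each. Of 9 epithelial and squamous markers, 8 were above 1 CPM in every library, and SOX2 had too few counts to test. They summed to 4758 to 5697 CPM in siZNF514 and 3936 to 4265 CPM in nc. The simple-epithelium keratins KRT8 (0.58) and KRT18 (0.77) and EPCAM (0.41) rose, the basal keratins KRT5 (-0.52) and KRT14 (-1.23) fell, and KRT17, TP63 and CDH1 did not pass. Their part in the results was not tested. CPM here is the count scaled to the tested counts of its library, corrected by edgeR's TMM factor. The endothelial markers PECAM1, VWF and CDH5 summed to 1.88 to 2.27 CPM in siZNF514 and 3.11 to 3.31 CPM in nc. The leukocyte markers summed to 48.8 to 57.2 CPM in siZNF514 and 55.2 to 67.8 CPM in nc, mostly from the lysosomal protein gene CD68. The 6 fibroblast markers summed to 14.1 to 39.9 CPM in siZNF514 and 11.7 to 13.4 CPM in nc. Of these COL1A1 had 15.5, 13.6 and 22.9 CPM in siZNF514 against 11.6, 9.89 and 9.55 CPM in nc. COL1A1 rose (0.75, edgeR adjusted p = 0.0195), LUM did not pass (-0.06) and the others were not tested. In siZNF514 replicate 3, COL3A1 had 112 counts, COL1A2 had 49, DCN had 33 and LYZ had 49, while the other siZNF514 libraries had 0 of each and no nc library had more than 7. Without that library, 16 members rose and 4 fell, against 16 and 5 with it.

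Of the 39 genes, 37 had enough counts to test. In siZNF514 against nc, 16 rose, 5 fell and 16 did not pass, by edgeR's quasi-likelihood test at 0.05 after Benjamini-Hochberg adjustment over 14250 genes. That is 56.8% of the 37, beside 50.6% of all genes tested. The direction was uneven: 43.2% of the 37 rose and 13.5% fell, beside 25.5% and 25.1% of all genes. The median log2 fold change (siZNF514 over nc) was 0.14, against -0.01 over all genes. The groups did not overlap in CPM for 25 of the 37, or 67.6%, beside 60.3% of all genes. Changes were mostly small, since 9 genes (24.3%) passed with a log2 fold change of at least 0.5 in size, beside 28% of all genes.

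Without nc replicate 3, or without siZNF514 replicate 1 or 2, 3 members fell. The balance also moved with the scaling. With total counts alone in place of TMM factors, the median of all genes moved by -0.13, and 10 members rose and 5 fell. The 6 that no longer passed were PIK3C3, PIK3R4, ATG7, ATG9A, TFE3 and TAX1BP1, each with a log2 fold change under 0.3. Among all called genes, 50.3% were higher with TMM factors and 34.3% with total counts. Among called members these shares were 76.2% and 66.7%. With total counts, 2493 of all 14250 genes were higher and 4775 lower. Relative to the median of all genes, the members' median was 0.15 with TMM scaling and 0.15 with total counts alone. A change of scaling shifts all genes nearly alike, so these values had to be near each other and test nothing. The relative median was 0.26 without the filter on low counts and 0.11 at a mean count of at least 50. By limma on log2(FPKM + 1) it was 0.10. Log2 fold changes below carry the TMM scaling. In bulk RNA, fewer cells of a type and less RNA per cell cannot be told apart. Genes on the other strand overlap 14 members, among them BECN1, ATG2B, WIPI1, ATG3, ATG4B, ATG7, NBR1 and TAX1BP1 of those that passed, and a gene on the same strand overlaps ATG9A. Overlap here is between gene spans, introns included, and overlap of exons was not examined. The use of strand in counting is not stated. Reads from any exon bases that such pairs share therefore cannot be told apart, and these values are uncertain to that extent.

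**Figure D1:**
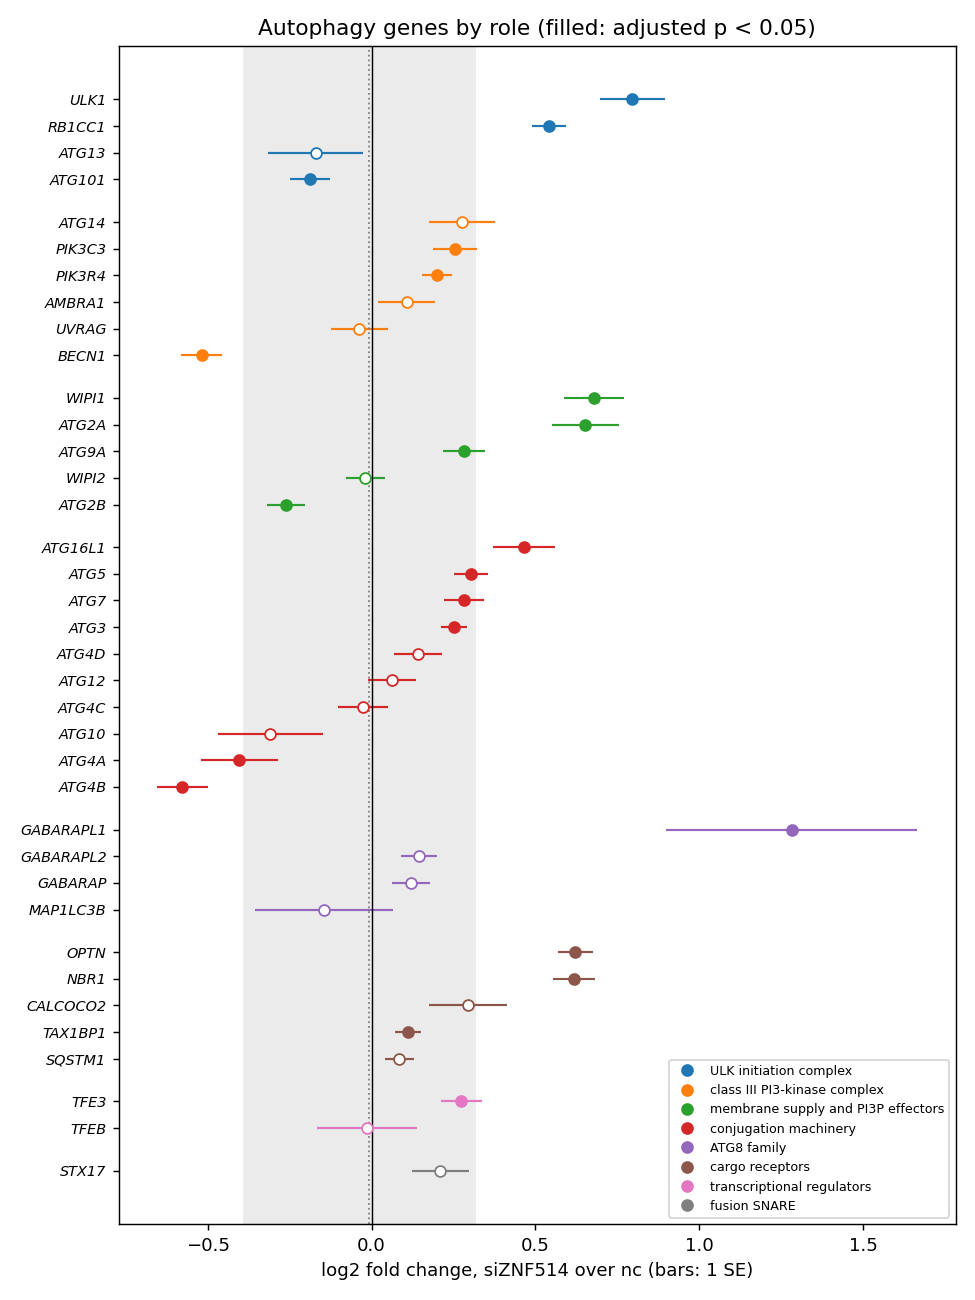
Log2 fold change of the 37 tested members, siZNF514 over nc, on the horizontal axis, grouped by role down the page, with bars of 1 SE. Filled points passed an adjusted p of 0.05; the grey band spans the interquartile range of all tested genes, from -0.39 to 0.31, and GABARAPL1 lies farthest right at 1.28 with the widest bar.

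In the ULK complex, the kinase and scaffold genes rose, and 1 of 2 adaptor genes fell. ULK1 (ENSG00000177169; hg38 chromosome 12, 131894651 to 131923167, plus strand), the kinase that starts autophagosome formation, had 35.9, 39.0 and 35.4 CPM in siZNF514 against 19.4, 23.9 and 20.2 CPM in nc. Every siZNF514 library was above every nc library. ULK1 rose, with a log2 fold change of 0.80 (SE 0.10, edgeR adjusted p = 0.000586). RB1CC1 (ENSG00000023287), the large FIP200 scaffold that holds the complex together, had 196, 188 and 184 CPM in siZNF514 against 134, 123 and 133 CPM in nc, again without overlap. It rose by 0.54 (SE 0.05, edgeR adjusted p = 0.000192).

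Neither adaptor gene rose. ATG101 (ENSG00000123395), which stabilises ATG13, was at 72.6 ± 3.92 CPM in siZNF514 and 82.6 ± 3.49 CPM in nc (SD, n = 3 each) and fell by 0.19 on the log2 scale (edgeR adjusted p = 0.0362). That call was lost without nc replicate 2 or 3, without siZNF514 replicate 1 or 2, with the replicate number as a block (adjusted p = 0.066) and without the filter on low counts. ATG13 (ENSG00000175224), the adaptor that mTORC1 and ULK1 phosphorylate, had 110, 123 and 114 CPM in siZNF514 against 148, 99.7 and 144 CPM in nc. Its nc replicate 2 lay below every siZNF514 library and the other nc libraries above, and it did not pass (-0.17, SE 0.14). Without nc replicate 2 it passed at -0.33 (edgeR adjusted p = 0.0083). ULK2, the other ULK kinase of this complex, had 0 counts in every library, which allows up to 3 counts in each, or 0.21 to 0.237 CPM, for counting error only.

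In the class III PI3-kinase complex, the beclin 1 gene fell while the genes of the kinase and its regulatory subunit rose slightly. BECN1 (ENSG00000126581; hg38 chromosome 17, 42810134 to 42833350, minus strand), which encodes beclin 1, had 56.0, 62.2 and 55.7 CPM in siZNF514 against 79.8, 85.5 and 83.8 CPM in nc. The groups did not overlap, and BECN1 fell by 0.52 on the log2 scale (SE 0.06, edgeR adjusted p = 0.000526). The gene span of BECN1, introns included, shares 8966 bases with that of PSME3 on the other strand. PSME3 had 2534, 3189 and 3304 counts in siZNF514 and 4133, 1630 and 2998 in nc. The part of PSME3 reads in the BECN1 counts was not tested.

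PIK3C3, the lipid kinase VPS34, was at 57.3 ± 2.68 CPM in siZNF514 and 48.1 ± 2.91 CPM in nc, and PIK3R4, its myristoylated partner VPS15, was at 90.4 ± 2.08 CPM in siZNF514 and 78.7 ± 1.49 CPM in nc (SD, n = 3 each). Both rose (0.25 and 0.20, edgeR adjusted p = 0.0172 and 0.00939), though neither passed with total counts alone (0.13 and 0.07), the PIK3C3 call being lost without nc replicate 3 (0.22, edgeR adjusted p = 0.054). ATG14, which directs this complex to autophagosome formation, had 23.7, 19.5 and 20.7 CPM in siZNF514 against 18.7, 16.8 and 17.3 CPM in nc. The libraries did not overlap but it did not pass (0.28, SE 0.10, edgeR adjusted p = 0.0559), and it passed without siZNF514 replicate 2 at 0.34. UVRAG, the alternative subunit tied to endosomes, and AMBRA1, a beclin 1 partner, overlapped between groups and did not pass (-0.04 and 0.11). The AMBRA1 gene span shares bases with AC024293.1 on the same strand, whose part in the AMBRA1 counts was not tested.

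**Figure D2:**
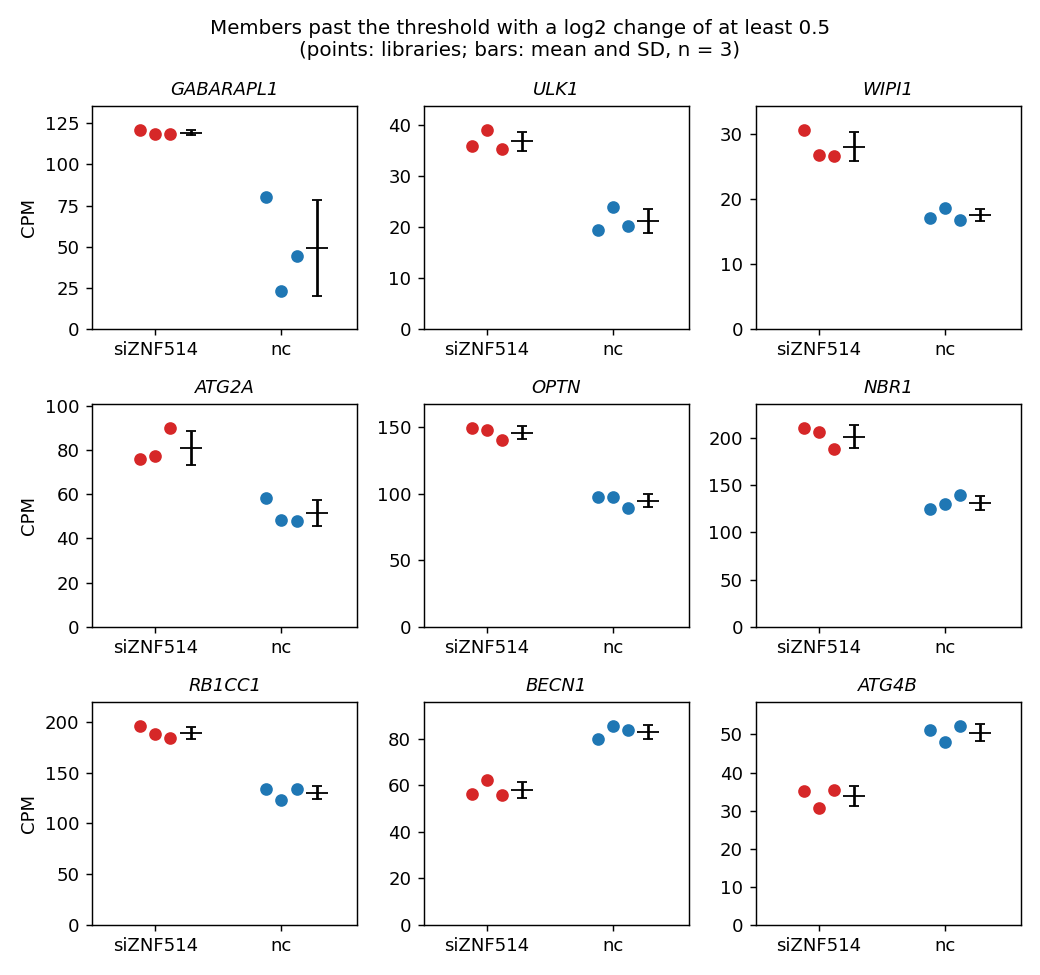
CPM on a vertical axis from 0 for the 9 members that passed with a log2 fold change of at least 0.5 in size, 1 point per library, with the mean and SD of 3 libraries beside them. In each panel the groups do not overlap; the nc libraries of GABARAPL1 run from 22.8 to 80.4 CPM while its siZNF514 libraries lie between 119 and 121.

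Genes of membrane supply and PI3P reading had 3 of 5 higher and 1 lower (60% and 20%, beside 25.5% and 25.1% of all genes). WIPI1 (ENSG00000070540; hg38 chromosome 17, 68420948 to 68457513, minus strand), a PI3P-binding propeller protein, had 30.6, 26.8 and 26.7 CPM in siZNF514 against 17.1, 18.6 and 16.8 CPM in nc. It rose by 0.68 (SE 0.09, edgeR adjusted p = 0.000832), without overlap. WIPI2, the paralog that recruits ATG16L1, was at 84.7 ± 3.78 CPM in siZNF514 and 85.8 ± 4.13 CPM in nc (SD, n = 3 each) and did not pass (-0.02). Per kilobase of merged exons in GENCODE v29 (each base counted once), WIPI1 was at 8.24 ± 0.653 CPM in siZNF514 and 5.14 ± 0.282 in nc, beside WIPI2 at 9.44 ± 0.421 in siZNF514 and 9.56 ± 0.46 in nc.

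ATG2A (ENSG00000110046), a lipid transfer protein that bridges the endoplasmic reticulum and the growing membrane, had 76.0, 77.1 and 90.0 CPM in siZNF514 against 58.4, 48.4 and 48.0 CPM in nc. It rose by 0.65 (SE 0.10, edgeR adjusted p = 0.00169), and its groups did not overlap. Its paralog ATG2B had 34.1, 34.3 and 32.8 CPM in siZNF514 against 41.2, 40.7 and 39.5 CPM in nc. ATG2B fell by 0.26 on the log2 scale (SE 0.06, edgeR adjusted p = 0.00848), so the paralogs passed in opposite directions, and both calls held under each alternative tried. ATG9A, the lipid scramblase of seed vesicles, rose by 0.28 (SE 0.06, edgeR adjusted p = 0.00949; 0.15 and not past the threshold with total counts alone) and had 74.9, 81.3 and 86.0 CPM in siZNF514 against 64.7, 68.9 and 65.5 CPM in nc.

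Of the 10 genes of the conjugation machinery, 4 rose, 2 fell and 4 did not pass. The shares were 40% higher and 20% lower, beside 25.5% and 25.1% of all genes. The enzymes that activate and transfer ATG8 proteins rose: ATG7, the E1-like enzyme, by 0.28 (SE 0.06; 0.16 and not past the threshold with total counts alone), and ATG3, the E2-like enzyme for ATG8, by 0.25 (SE 0.04). ATG5 (0.30, SE 0.05) and ATG16L1 (0.46, SE 0.09), which form the E3-like complex with ATG12, rose as well, all 4 at edgeR adjusted p-values from 0.00162 to 0.00759. ATG16L1 had 80.9, 80.6 and 73.4 CPM in siZNF514 against 61.2, 49.0 and 60.1 CPM in nc, and ATG3 had 142, 140 and 143 CPM in siZNF514 against 118, 120 and 120 CPM in nc. None of the 4 had overlapping groups. Over the 10 conjugation genes, the groups did not overlap for 7 (70%), beside 60.3% of all genes. ATG12, the ubiquitin-like partner of ATG5, did not pass (0.06, SE 0.07), nor did ATG10, the E2-like enzyme for ATG12 (-0.31, SE 0.16), which had 82 to 104 counts per siZNF514 library and 98 to 133 per nc library.

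The ATG4 proteases, which trim ATG8 proteins before conjugation and release them afterwards, had 2 of 4 genes lower, beside 25.1% of all genes. Of the 2, ATG4B kept its call under every alternative tried. ATG4B (ENSG00000168397; hg38 chromosome 2, 241637213 to 241673857, plus strand), the main protease for LC3, had 35.2, 30.7 and 35.5 CPM in siZNF514 against 51.2, 48.0 and 52.2 CPM in nc. It fell by 0.58 on the log2 scale (SE 0.08, edgeR adjusted p = 0.000796), and its groups did not overlap. ATG4A had 18.5, 17.8 and 17.7 CPM in siZNF514 against 22.7, 21.0 and 27.8 CPM in nc. It fell by 0.40 (SE 0.12, edgeR adjusted p = 0.0244), a call that was lost without nc replicate 3 (-0.28) or without any 1 of the siZNF514 libraries. ATG4C (-0.03) and ATG4D (0.14) did not pass, although every ATG4D value in siZNF514 (25, 26.1 and 27.6 CPM) was above those in nc (23.8, 23.8 and 23.7 CPM).

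Promoter sequence was examined because TFEB and TFE3 bind the E-box letters CACGTG in the CLEAR elements of lysosomal and autophagy genes. RefSeq promoter windows (GRCh38.p14, 250 bases before to 50 after the start) were found for 34 members, as 44 windows. CACGTG, which reads the same on both strands, was in 2 of the 44 windows and in 7.26% of all 35116 windows. The longer form GTCACGTG, or its complement, was in the same 2 windows and in 2.4% of all. The forkhead letters GTAAACA, or the complement TGTTTAC, were in 1 member window, that of CALCOCO2, and in 3.42% of all. The 2 windows were those of ATG3 and ATG14, shown 5′ to 3′ on the gene's strand with CACGTG in capitals, at chr3:112561913-112562212 and chr14:55411781-55412080, both on the minus strand.
ATG3: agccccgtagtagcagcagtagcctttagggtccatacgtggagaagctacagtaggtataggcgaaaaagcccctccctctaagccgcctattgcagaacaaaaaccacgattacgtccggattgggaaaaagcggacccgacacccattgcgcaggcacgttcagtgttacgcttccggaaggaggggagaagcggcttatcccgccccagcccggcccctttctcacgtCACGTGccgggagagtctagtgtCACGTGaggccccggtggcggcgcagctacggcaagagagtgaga
ATG14: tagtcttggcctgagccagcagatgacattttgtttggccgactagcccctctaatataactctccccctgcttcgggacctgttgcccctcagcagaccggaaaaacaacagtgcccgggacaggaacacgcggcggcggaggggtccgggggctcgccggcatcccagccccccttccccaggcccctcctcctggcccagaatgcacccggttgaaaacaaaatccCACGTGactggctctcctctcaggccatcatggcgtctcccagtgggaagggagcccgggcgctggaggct
The ATG3 window held 2 copies, beginning 18 bases before the start site and at base 6 after it, and ATG14 held 1, beginning 21 bases before the start site. ATG3 rose and ATG14 did not pass, as given above. A match in the letters is a description only, and the other windows may hold related sites that this search does not cover.

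In the ATG8 family, GABARAPL1 carried the largest change of all 37 tested members. GABARAPL1 (ENSG00000139112; hg38 chromosome 12, 10212458 to 10223130, plus strand), a GABARAP-type protein that also binds ULK1, had 121, 119 and 119 CPM in siZNF514 against 80.4, 22.8 and 44.3 CPM in nc. The siZNF514 libraries were nearly level and all above the nc libraries, which differed among themselves by more than 3-fold. It rose by 1.28 (SE 0.38, edgeR adjusted p = 0.027). Leaving out 1 library gave 0.94 to 1.84 on the log2 scale, and the call was lost without nc replicate 3 (1.22, edgeR adjusted p = 0.0796) or without any 1 siZNF514 library (adjusted p = 0.059 to 0.0623). The near-identical copy GABARAPL3 had 0 counts in siZNF514 and 2 in nc.

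The other ATG8 genes did not pass. GABARAP had 124, 139 and 138 CPM in siZNF514 against 120, 128 and 121 CPM in nc (0.12, SE 0.06), and it passed without siZNF514 replicate 1 (0.18). GABARAPL2, the Golgi-linked GATE-16 protein, had 86.0, 91.1 and 87.5 CPM in siZNF514 against 84.1, 77.2 and 78.0 CPM in nc (0.14, SE 0.05, edgeR adjusted p = 0.0595), and passed without nc replicate 1 (0.19). MAP1LC3B, the LC3 protein most used as an autophagosome marker, had 62.2, 91.3 and 64.5 CPM in siZNF514 against 88.3, 58.7 and 94.4 CPM in nc. In each group of MAP1LC3B libraries, replicate 2 stood apart from the other 2, upward in siZNF514 and downward in nc, and the groups overlapped (-0.15, SE 0.21). Its near-identical copy MAP1LC3B2 held 151 counts over siZNF514 and 113 over nc, so some reads could be shared. MAP1LC3A had 2 counts over siZNF514 and 1 over nc, at or under the floor of 3 counts, so no fold is given.

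The make-up of the family depended on the length used. In deposited FPKM (counts per kilobase of a gene length and per library total), GABARAPL1 was 10.9 ± 0.764% of the summed ATG8 level in siZNF514 and 4.95 ± 2.7% in nc (SD, n = 3 each). Per kilobase of merged exons, it was 22.3 ± 1.33% in siZNF514 and 10.8 ± 5.63% in nc. GABARAP was the most abundant on either scale, at 46.1 ± 1.49% of FPKM in siZNF514 and 48.0 ± 4.6% in nc. MAP1LC3B made up 13.9 ± 2.3% of FPKM in siZNF514 and 17.3 ± 3.39% in nc, and its libraries overlapped, at 12.4% to 16.5% in siZNF514 and 13.6% to 20.2% in nc. By merged exons, GABARAPL1 in siZNF514 was level with GABARAPL2 (22.2 ± 0.487%), while in nc it lay below it (24.5 ± 1.18%).

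**Figure D3:**
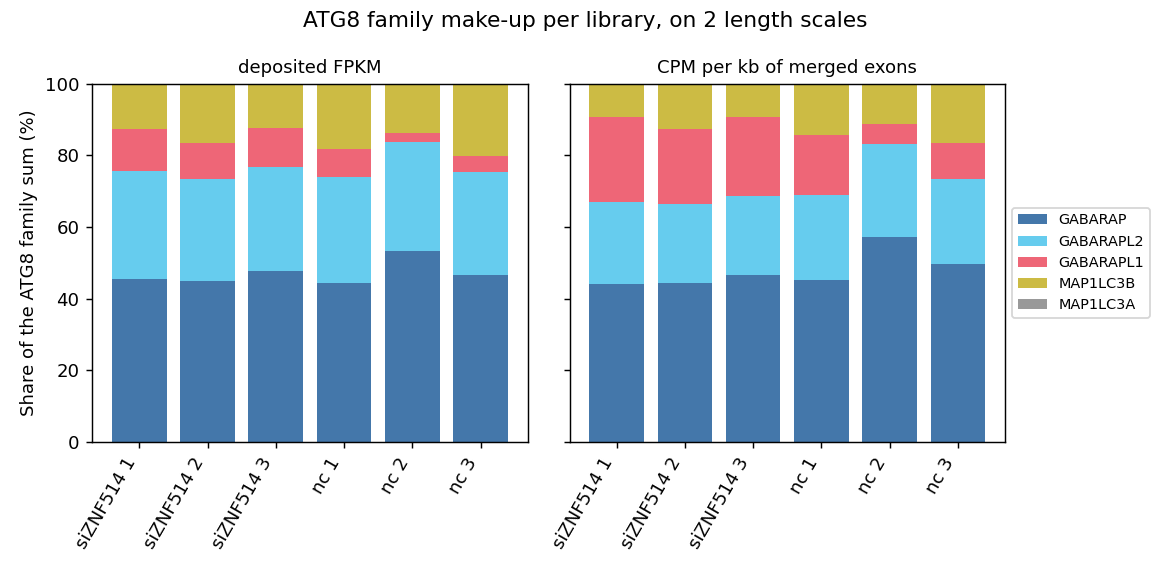
Share of each ATG8 gene in the family sum, in percent, for each library, by deposited FPKM on the left and by CPM per kilobase of merged exons on the right. The GABARAPL1 band is 10.2% to 11.7% of FPKM in siZNF514 and 2.5% to 7.84% in nc, and on the merged-exon scale it is 21.1% to 23.8% in siZNF514 and 5.66% to 16.8% in nc.

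Among the cargo receptors, NBR1 and OPTN rose and the most abundant, SQSTM1, did not pass. NBR1 (ENSG00000188554; hg38 chromosome 17, 43170481 to 43211689, plus strand), a receptor for ubiquitinated aggregates and peroxisomes, had 210, 206 and 188 CPM in siZNF514 against 124, 130 and 139 CPM in nc. It rose by 0.62 (SE 0.06, edgeR adjusted p = 0.000248). OPTN (ENSG00000123240; hg38 chromosome 10, 13099449 to 13138308, plus strand), the mitophagy and bacterial receptor optineurin, had 149, 148 and 140 CPM in siZNF514 against 97.7, 97.6 and 89.1 CPM in nc. It rose by 0.62 (SE 0.05, edgeR adjusted p = 0.000125), and neither gene's groups overlapped.

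SQSTM1 (ENSG00000161011), which encodes p62, had 677, 670 and 673 CPM in siZNF514 against 647, 594 and 663 CPM in nc. Its siZNF514 libraries lay just above the nc libraries, and the difference did not pass (0.08, SE 0.04, edgeR adjusted p = 0.145; -0.04 with total counts alone). TAX1BP1, a receptor that works beside p62 and NBR1, had 273, 276 and 263 CPM in siZNF514 against 248, 257 and 246 CPM in nc. It passed narrowly (0.11, SE 0.04, edgeR adjusted p = 0.0468). The TAX1BP1 call was lost under 11 of 14 alternatives, among them the replicate block (adjusted p = 0.0724), and the direction turned with total counts alone (-0.02). CALCOCO2, the receptor NDP52, had 87.3, 87.5 and 63.9 CPM in siZNF514 against 64.9, 65.7 and 63.9 CPM in nc, so its siZNF514 replicate 3 sat at the nc level. CALCOCO2 did not pass (0.29, SE 0.12, edgeR adjusted p = 0.0771) and passed without that library (0.44, edgeR adjusted p = 0.00133). With every library it passed by the DESeq2 Wald test (0.30, DESeq2 adjusted p = 0.0209).

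The transcriptional regulators were present at unlike levels. TFE3 (ENSG00000068323), a driver of lysosomal and autophagy genes, had 103, 92.9 and 93.4 CPM in siZNF514 against 75.8, 79.4 and 83.9 CPM in nc. It rose by 0.27 (SE 0.06, edgeR adjusted p = 0.00947), but did not pass with total counts alone (0.15). TFEB, its better known relative, had 55 to 62 counts per siZNF514 library and 57 to 67 per nc library and did not pass (-0.01, SE 0.15). MITF, a factor of the same family that is not among the 39, fell, with 3.92, 4.29 and 5.28 CPM in siZNF514 against 14.7, 22.7 and 14.5 CPM in nc (-1.94, SE 0.22, edgeR adjusted p = 0.000398). STX17, the SNARE of completed autophagosomes, had 33.5, 37.9 and 35.5 CPM in siZNF514 against 33.7, 28.7 and 30.1 CPM in nc. STX17 overlapped between groups and did not pass (0.21, SE 0.09), though it passed without nc replicate 1 (0.28).

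Set side by side, each role holds few genes and no difference between roles was tested. The shares over all genes were 25.5% higher and 25.1% lower. Initiation, taken as both kinase complexes, had 4 of 10 tested genes higher and 2 lower, with a median log2 fold change of 0.15. Conjugation had 4 of 10 higher and 2 lower (median 0.10), and membrane supply had 3 of 5 higher and 1 lower (median 0.28). The cargo receptors had 3 of 5 higher and 0 lower (median 0.29), the ATG8 family 1 of 4 higher and 0 lower (median 0.13), and the regulators 1 of 2 higher and 0 lower (median 0.13). The medians lay between 0.10 and 0.29, inside the interquartile range of all genes, and the receptors had 5 of 5 log2 fold changes above 0 with TMM scaling. With total counts alone, SQSTM1 and TAX1BP1 turned to -0.04 and -0.02, leaving 3 of 5 above 0, of which NBR1 and OPTN passed. The PI3-kinase complex and the regulators then had 0 genes higher, and initiation had the 2 of the ULK complex. Conjugation had 3 higher, membrane supply 2, and the ATG8 family GABARAPL1. In that fit 2493 of all 14250 genes were higher, against 3629 with TMM scaling.

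Levels were ordered per kilobase of merged exons. SQSTM1 was highest at 87.9 ± 0.502 CPM per kilobase in siZNF514 and 82.9 ± 4.71 in nc, followed by GABARAP at 59.0 ± 3.58 in siZNF514 and 54.3 ± 1.89 in nc (SD, n = 3 each). TAX1BP1 (29.5 ± 0.763 in siZNF514 and 27.3 ± 0.629 in nc) and GABARAPL2 (29.1 ± 0.858 in siZNF514 and 26.3 ± 1.23 in nc) came next and lay within their spread of each other. GABARAPL1 ranked 4 in siZNF514 at 29.2 ± 0.335 and 16 in nc at 12 ± 7.13, so in siZNF514 it could not be ordered against TAX1BP1 and GABARAPL2. OPTN stood beside them in siZNF514 at 28.4 ± 0.936 and lower in nc at 18.5 ± 0.954. BECN1 ranked 23 in siZNF514 at 9.04 ± 0.568 and 15 in nc at 12.9 ± 0.456. ATG10 (1.31 ± 0.173 in siZNF514 and 1.63 ± 0.243 in nc) and TFEB (0.803 ± 0.0387 in siZNF514 and 0.812 ± 0.101 in nc) were lowest among the tested genes. ULK1 stayed among the lower members, at 4.83 ± 0.257 in siZNF514 and 2.78 ± 0.317 in nc.

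**Figure D4:**
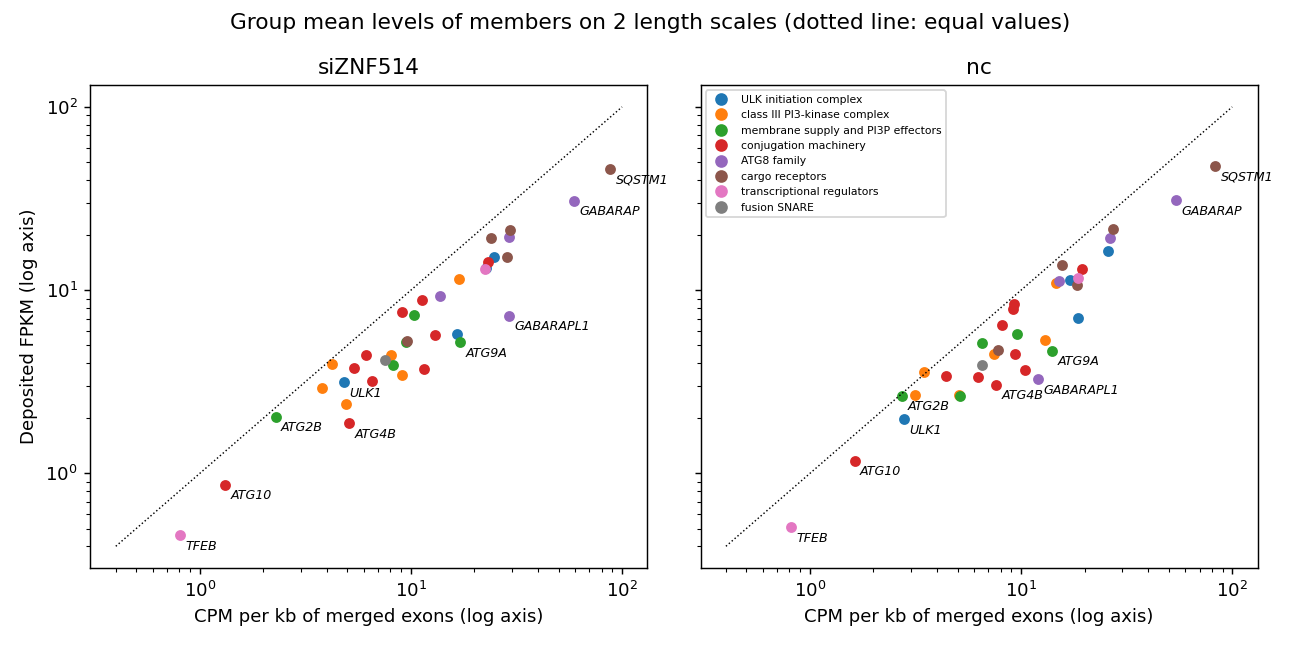
Group mean deposited FPKM against CPM per kilobase of merged exons for the tested members, both on log axes, siZNF514 on the left and nc on the right, coloured by role. Points lie below the dotted line of equal values by unequal amounts, except ATG14 in nc just above it (3.58 FPKM against 3.49), and GABARAPL1 lies farthest below, since the length behind its FPKM is 3.84 times its merged exon length.

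A further 79 genes of the pathway, in 5 lists, gave a wider view, and 72 were tested. Of these 18 rose (25%) and 19 fell (26.4%), with a median of 0.02, beside 25.5% and 25.1% of all genes. Among 14 factors of autophagosome-lysosome fusion, 5 rose and 4 fell (35.7% and 28.6%). EPG5, a tether of autophagosomes and lysosomes, was at 63.9 ± 3.77 CPM in siZNF514 and 29.5 ± 1.74 CPM in nc (SD, n = 3 each) and rose by 1.11 (SE 0.07), and the SNARE gene VAMP8 rose by 0.64 (SE 0.05). VPS18, a subunit of the HOPS tethering complex, was at 24.4 ± 0.117 CPM in siZNF514 and 44.4 ± 2.38 CPM in nc and fell by 0.87 on the log2 scale (SE 0.07). The small GTPase gene RAB7A rose (0.41, SE 0.04). All 4 had edgeR adjusted p-values from 3.95e-05 to 0.000272.

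Of 10 tested mitophagy genes, 3 rose and 1 fell (30% and 10%, beside 25.5% and 25.1% of all genes). BNIP3, a hypoxia-induced receptor on mitochondria, had 21.6, 23.2 and 22.5 CPM in siZNF514 against 12.8, 9.47 and 11 CPM in nc and rose by 1.02 (SE 0.12, edgeR adjusted p = 0.000508). FKBP8, another mitochondrial receptor, rose (0.52, SE 0.04), and BCL2L13, also a mitochondrial receptor, fell (-0.38, SE 0.06). BNIP3L, the relative of BNIP3, had 78.7, 80.9 and 79.1 CPM in siZNF514 against 40.1, 39.1 and 70.2 CPM in nc. It passed (0.68, SE 0.22, edgeR adjusted p = 0.0341), a call lost with total counts alone (0.55), without nc replicate 1 (0.55) or 2 (0.53), and without any 1 siZNF514 library.

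Of 10 tested receptors for the endoplasmic reticulum and other cargo, 2 rose and 4 fell (20% and 40%, beside 25.5% and 25.1% of all genes). The large scaffold gene WDFY3 (0.62, SE 0.07) and the reticulum GTPase gene ATL3 (0.32, SE 0.05) rose. The reticulum receptors CCPG1 (-0.34, SE 0.08) and SEC62 (-0.20, SE 0.06) fell, the SEC62 call being lost without nc replicate 1 (-0.17) or 2 and without siZNF514 replicate 1 (-0.19) or 3 (-0.15). With the replicate block 2 of this list fell, without the filter on low counts 1, and leaving out any 1 library left 1 to 2. Of 15 other core factors, 2 rose and 5 fell (13.3% and 33.3%, beside 25.5% and 25.1% of all genes). VMP1, a scramblase needed for autophagosome formation (0.45, SE 0.05), and ZFYVE1, a PI3P-binding protein (0.36, SE 0.07), rose, while WDR45B, a further WIPI protein (-0.54, SE 0.04), and RUBCN, an inhibitor of the PI3-kinase complex (-0.37, SE 0.07), fell.

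Of 23 tested genes that relay nutrient and energy signals to ULK1 and TFEB, 6 rose and 5 fell. These were 26.1% and 21.7%, beside 25.5% and 25.1% of all genes. With total counts alone 11 of this list were lower, a fit in which 4775 of all 14250 genes were lower, against 3583 with TMM scaling. Without nc replicate 3 or siZNF514 replicate 2, 3 of this list were lower. DDIT4, which restrains mTORC1 through the TSC complex, rose by 1.07 (SE 0.03, edgeR adjusted p = 3.22e-06). TSC1, a subunit of that complex, rose by 0.54 (SE 0.06), and RHEB, the GTPase it inhibits, rose by 0.40 (SE 0.06). MITF, given above, fell. MTOR (-0.04, SE 0.04) did not pass. Apart from MTOR (0.522), the named genes of these 5 lists had edgeR adjusted p-values from 3.22e-06 to 0.0341.

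**Figure D5:**
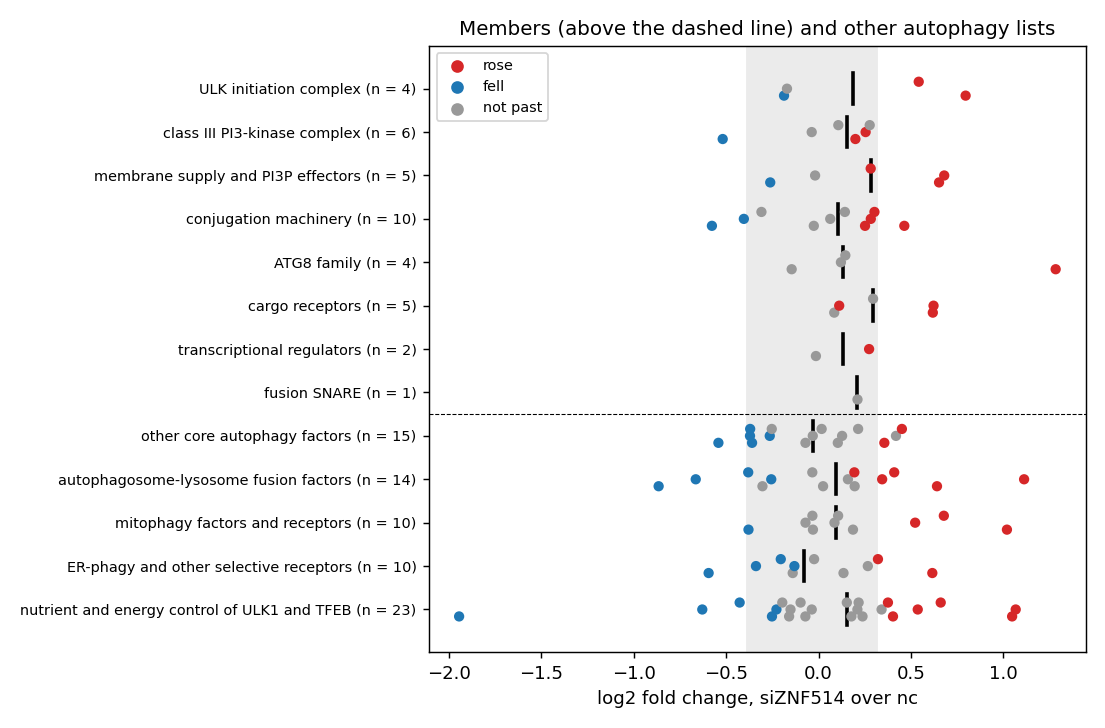
Log2 fold change, siZNF514 over nc, for each tested gene of the member roles (above the dashed line) and of the 5 other autophagy lists (below it), with the list median as a black bar and the interquartile range of all genes in grey. Red points rose, blue points fell and grey points did not pass; MITF lies farthest left at -1.94, and the cargo receptors are the list of more than 1 gene with no point below 0 under TMM scaling.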

How the data were processed

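Counts and FPKM values were read from 1 deposited table. The deposited count columns are raw counts per gene, per the file headers. The deposited FPKM columns equal those counts over 1 length per gene and the library total. Per the submitters' processing notes, hg38, edgeR, StringTie 1.3.3b and HISAT2 2.0.4 were used, in roles that are not stated. Annotation and strand setting are not given in the sources used. Libraries differed within groups by 7.43 to 9.69 chi-square per degree of freedom, so each was kept as 1 replicate. No batch is given.

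In edgeR 4.0.16 under R 4.3.3, filterByExpr (minimum count 10, minimum total 15) left 14250 genes, and TMM factors ran from 0.954 to 1.05. Groups were compared by the quasi-likelihood test (4 residual df), with Benjamini-Hochberg adjusted p-values over all genes and a threshold of 0.05. SE is the size of the log2 fold change divided by the square root of F. The scripts were tested on simulated data. Alternatives used limma 3.58.1 on log2(FPKM + 0.1) or log2(FPKM + 1) and DESeq2 1.42.0. Exon lengths came from GENCODE v29. Members, lists, roles and motifs were chosen with earlier results of these data known. Values per library are given for members past the threshold with a log2 fold change of at least 0.5, the ATG8 genes and the receptors; other named genes have the 4 smallest p-values of their list, and any further gene or library value was chosen after its values were seen. Intervals and floors of 3 counts cover counting error only.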

Additional observations from a re-analysis of the deposited data

How the results depend on the processing

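Of 21 members past the threshold, 12 kept their direction and call under all 14 alternatives: ULK1, RB1CC1, BECN1, ATG2A, ATG2B, WIPI1, ATG3, ATG4B, ATG5, ATG16L1, NBR1 and OPTN. Members higher came to 10 with total counts alone and with limma-trend on log2(FPKM + 0.1) or log2(FPKM + 1), all of which lack TMM scaling, and to 13 to 17 when 1 library was left out; members lower then came to 3 to 5. With the replicate number as a block, 15 members and 3356 genes were higher and 4 members and 3284 genes lower. The labels do not say that a number marks a batch, and deviations of same-numbered libraries correlated at 0.01, 0.04 and -0.04, so the numbers were not taken as pairs, and not every library correlated best with its own number. Genes higher and lower came to 3629 and 3583 with TMM scaling, 2493 and 4775 with total counts alone, and 3197 to 3338 and 3104 to 3225 when 1 library was left out.

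Directions turned for TAX1BP1 (-0.015 with total counts alone, -0.014 and -0.014 in the limma fits at 0.1 and 1). They also turned for 8 members that were not past the threshold: in those fits, in that order, AMBRA1 (-0.020, -0.025, -0.020), ATG12 (-0.064, -0.059, -0.047), GABARAP (-0.0062, -0.0064, -0.0062) and SQSTM1 (-0.042, -0.040, -0.039); without the filter, WIPI2 (0.00092) and TFEB (0.0055). Leaving out 1 library gave ranges across 0 for UVRAG (-0.11 to 0.025), WIPI2 (-0.038 to 0.024), ATG4C (-0.052 to 0.026), ATG12 (-0.00041 to 0.12) and TFEB (-0.094 to 0.087).

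In percentage points, siZNF514 minus nc, the GABARAPL1 share of the ATG8 sum was 5.94 by FPKM, 14.7 by counts without length and 11.5 by merged exons, the last an alternative chosen after seeing the data. The GABARAPL2 share differed by -0.593, -2.87 and -2.26. Leaving out 1 library gave 4.72 to 7.39 for GABARAPL1, -1.09 to -0.093 for GABARAPL2, -5.32 to -2.004 for MAP1LC3B and -3.77 to 0.662 for GABARAP. The GABARAP share turned without nc replicate 2. Depth limits TFEB and ATG10, and ULK2 and MAP1LC3A could not be tested.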

Other observations

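The deposited FPKM values do not rest on the length of a gene's merged exons. The length recovered from count and FPKM was within 1% of the sum of all distinct annotated exons of the gene in GENCODE v29 for 89.6% of 25759 genes, where overlapping exons of different transcripts are each counted in full. It was within 1% of the merged exon length for 34.6%. For 35 of the 38 members with a count, the recovered length equalled the sum of distinct exons within 1 base. It was 1.02 to 3.84 times the merged exon length, with a median of 1.65, lowest for ATG14 and highest for GABARAPL1 (15708 against 4086 bases). Fold changes of a gene between groups are not touched by a length that is the same in every library, but the order of genes within a library is. By FPKM GABARAPL1 ranked 16 in siZNF514 and 29 in nc among the 38 members, and by merged exons 4 in siZNF514 and 16 in nc. ATG9A ranked 21 by FPKM in both groups, and by merged exons 12 in siZNF514 and 14 in nc.

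Overlapping genes with at least 60 counts over the 6 libraries lay in the loci of 17 of the 39 members, on the other strand for 14. The shared bases are those of gene spans, introns included. JAZF1, which shares 13992 bases with TAX1BP1, had 391, 332 and 358 counts in siZNF514 against 145, 178 and 174 in nc. AC120057.2, on the same strand within GABARAP, had 254, 47 and 42 counts in siZNF514 against 40, 40 and 41 in nc. AC024293.1 shares 498 bases with AMBRA1 on the same strand. It had 4073, 4357 and 4817 counts in siZNF514 against 2879, 3179 and 2870 in nc. RPS23, which shares 3500 bases with ATG10, had 6434, 6424 and 6508 counts in siZNF514 against 4321, 4989 and 4396 in nc. Their part in the members' values was not tested.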
